A study of Mus musculus with 12 samples.

Results

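The genes described here encode fatty acid oxidation and ketone body metabolism. By name, 37 genes were listed for their known roles, with earlier results of these data known. Array values enter the rule only in the choice of a probe set for each gene. They comprise 3 acyl-CoA synthetases that activate fatty acids, 20 genes of the mitochondrial pathway, 12 of the peroxisomal pathway, and the regulators Ppara and Pdk4. Where several probe sets were listed with a gene alone, the gene was read from the brightest on average across the 12 arrays. By this rule 33 of the 37 were measured, out of 17097 genes with a probe set, and all 33 were among the 13073 genes tested. Measured were 2 of the 3 activation genes, 17 of the 20 mitochondrial genes, all 12 peroxisomal genes and both regulators. Acsl1, Hadha and Bdh1 are not analysed here, and neither is Etfb, whose probe set is listed with 2 genes.

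Long-chain fatty acids are activated to acyl-CoA, carried into mitochondria as carnitine esters, and shortened there by repeated rounds of dehydrogenation, hydration, a second dehydrogenation and thiolysis. Peroxisomes run a parallel cycle on very long, branched and dicarboxylic chains, and hand shortened products on to mitochondria. Liver oxidizes fatty acids strongly and exports ketone bodies made from the acetyl-CoA, whereas brain takes little of its energy from fatty acids and burns ketone bodies that the liver supplies.

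Expression was measured on Affymetrix mouse arrays. The animals were male BALB/c mice aged 10 weeks, none of them genetically altered, and gave brain and liver. Tissue was taken at death (0 h), 3 h later from bodies at room temperature, or 18 h later with the wait at 4 °C, so time and temperature changed together. Fresh-frozen (FF) pieces were kept in RNAlater, and a kit for 3′ in vitro transcription labelled their RNA. Formalin-fixed paraffin-embedded (FFPE) pieces had 24 h in 10% formalin, were stored as blocks for 7 d and cut at 10 µm, and their RNA was amplified with a whole-transcript kit for FFPE material. Preservation and kit therefore always changed together and cannot be told apart. Each of the 12 combinations of tissue, preservation and time had 1 array, with no replicate. The labels do not say which arrays share an animal. The spread behind the p-values is how far FF and FFPE arrays of a tissue disagreed on its changes with time. It does not measure the spread between animals, so a change with time cannot be told apart from a difference between animals. All values are log2 intensities, and a log2 difference of 1 is a 2-fold ratio.

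The median probe set read between 4.65 and 4.68 on FF arrays and between 4.80 and 4.88 on FFPE arrays. Precision is limited by how few arrays there are. All 10 hepatocyte markers that passed the filter on low values (of 11 with a probe set) were higher in liver in both preservations. All 9 neuron and 6 oligodendrocyte markers were lower, as the tissue labels say. A marker could pass that filter through its own tissue alone, so these counts describe the arrays and are no test of the labels. Other lists were mixed in FF, with 1 higher and 4 lower of 6 astrocyte markers, and 2 and 3 of 5 choroid plexus markers. The summed hepatocyte marker signal was 10.68 in FF brain at 0 h, against 8.19 at 3 h and 8.04 at 18 h, and 8.95, 8.41 and 8.41 in FFPE brain. It was between 15.53 and 15.79 in the 6 liver arrays. The 3′ minus 5′ gap of the Gapdh control probe sets was 0.03, 0.82 and 1.14 in FF liver at 0, 3 and 18 h, and 1.04, 1.63 and 1.77 in FFPE liver. In brain that gap stayed between -0.02 and 0.05 in FF and between 1.22 and 1.25 in FFPE. Other controls differed: the Actb gap was 1.09, 2.00 and 1.90 in FF liver and -0.12, -0.01 and -0.18 in FFPE liver, and the Pcx gap was 5.10, 5.48 and 5.36 in FF liver and 2.75, 2.23 and 2.18 in FFPE liver.

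Liver and brain were compared to ask which steps of the pathway mark which tissue. Of the 33 measured genes, 27 were higher in liver and 6 lower in FF, and the split was again 27 and 6 in FFPE (limma, adjusted p under 0.05, means of 3 arrays against 3). Over all genes tested, 36.5% were higher and 37.5% lower in liver in FF, and 34.5% and 29.0% in FFPE. The median liver minus brain difference of the 33 genes was 2.68 in FF and 3.44 in FFPE, against 0.04 over all genes in each. Mitochondrial genes split 15 higher and 2 lower in both preservations, with medians of 2.84 and 3.74. The grouping is by pathway: Cpt1c, 1 of the 2 lower, is known to reside in the endoplasmic reticulum. Peroxisomal genes split 11 and 1 in both, with medians of 2.68 and 3.52, so the compartments lay close together. Eci2, Ech1 and Crat have more than 1 known location. Without them peroxisomal genes split 9 and 0 in FF (median 3.21) and 8 and 1 in FFPE (median 3.40). The difference between compartments was not tested. In these tissue pieces, fewer cells of a type and less RNA per cell cannot be told apart.

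**Figure D1:**
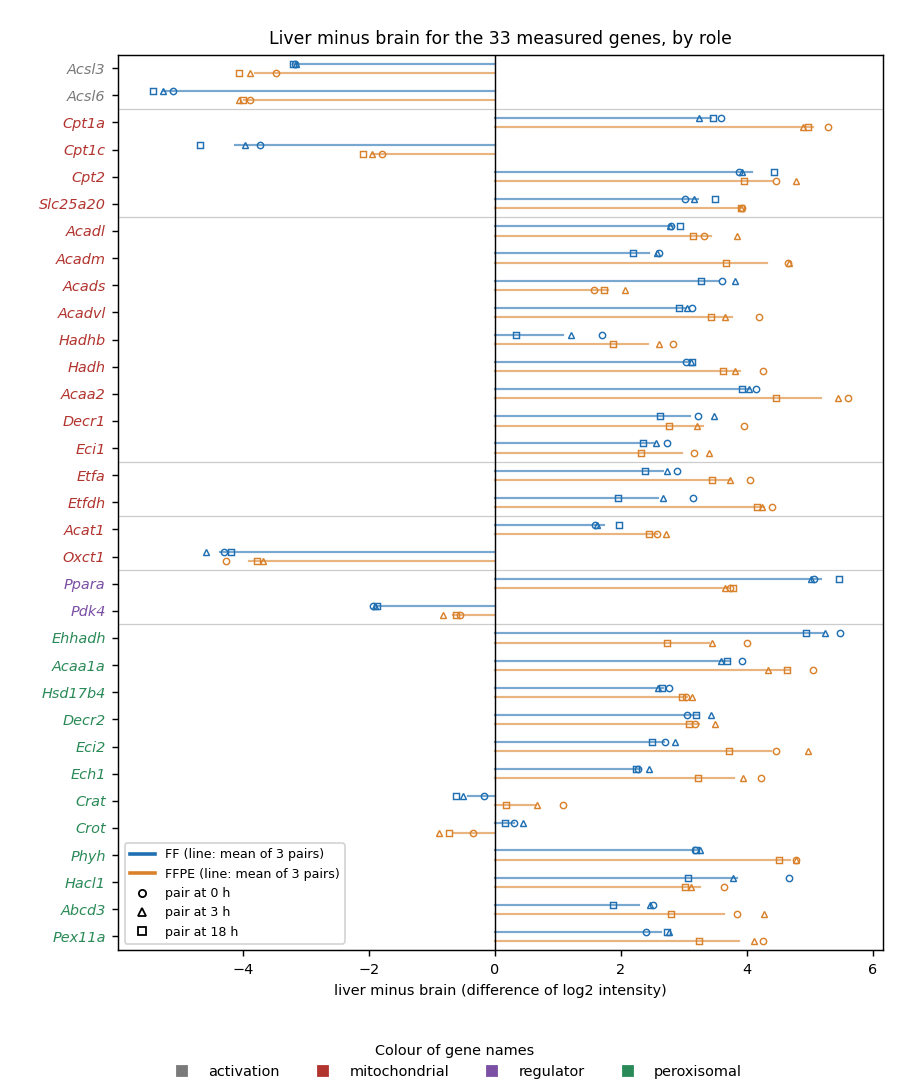
Liver minus brain difference of log2 intensity (x axis) for each of the 33 measured genes (y axis, grouped by role). Lines are means of 3 array pairs in FF and FFPE, and symbols are the pairs at 0, 3 and 18 h. Acsl3, Acsl6, Cpt1c, Oxct1 and Pdk4 lie left of 0 in all 6 pairs, and most others lie right of it.

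Both measured activation genes of the set were higher in brain, and the third, Acsl1, is not analysed here. Acsl6, a long-chain acyl-CoA synthetase of neural tissue, read 9.57, 9.47 and 9.64 in FF brain at 0, 3 and 18 h, and 4.46, 4.20 and 4.21 in FF liver. In FFPE it read 8.03, 8.01 and 8.14 in brain and 4.14, 3.94 and 4.14 in liver. The tissues did not overlap, and the 6 liver values all lay below the array median. The liver minus brain difference was -5.27 ± 0.11 in FF (SE, adjusted p = 1.33e-13) and -3.99 ± 0.11 in FFPE (adjusted p = 2.23e-12). Acsl3, a synthetase found on endoplasmic reticulum and lipid droplets, was also lower in liver, by -3.18 ± 0.12 in FF and -3.81 ± 0.12 in FFPE.

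The carnitine shuttle was split by isoform. Cpt1a encodes the liver form of the enzyme that couples acyl chains to carnitine, the rate-controlling step of mitochondrial entry. It read 6.49, 6.77 and 6.63 in FF brain and 10.08, 10.01 and 10.09 in FF liver, with 4.34, 4.69 and 4.40 in FFPE brain and 9.64, 9.59 and 9.38 in FFPE liver. Every liver array was above every brain array, and the difference was 3.43 ± 0.11 in FF (adjusted p = 8.66e-12) and 5.06 ± 0.11 in FFPE (adjusted p = 3.27e-13). Cpt1c, the brain isoform, which resides in the endoplasmic reticulum and has little catalytic activity, ran the other way. It read 8.97, 9.16 and 9.18 in FF brain against 5.24, 5.19 and 4.50 in FF liver, and 6.89, 6.95 and 7.06 in FFPE brain against 4.96 to 5.10 in FFPE liver. Again the tissues did not overlap, with differences of -4.13 ± 0.14 in FF (adjusted p = 8.04e-12) and -1.95 ± 0.14 in FFPE (adjusted p = 2.88e-08). Cpt2, which releases the acyl chain inside the mitochondrion, was higher in liver by 4.08 ± 0.17 in FF and 4.41 ± 0.17 in FFPE. Slc25a20, the carnitine-acylcarnitine carrier of the inner membrane, was higher by 3.23 ± 0.11 and 3.91 ± 0.11.

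**Figure D2:**
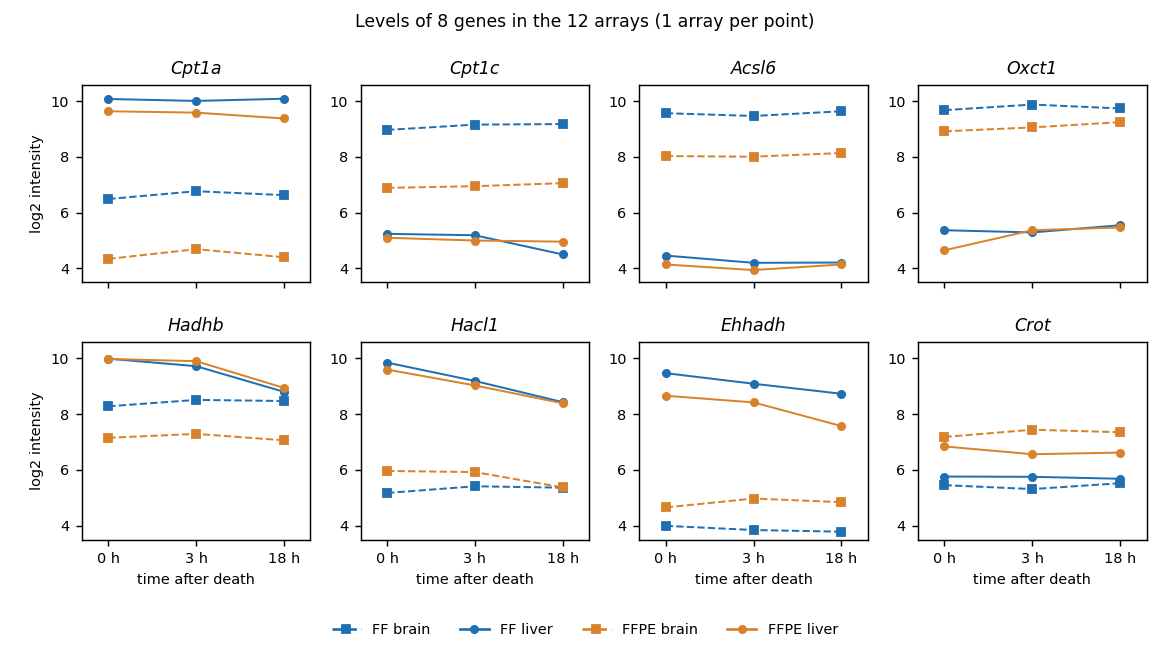
Log2 intensity (y axis) of 8 genes at 0, 3 and 18 h after death (x axis), with 1 array per point. Cpt1a and Cpt1c stand in opposite tissues, and Hadhb, Hacl1 and Ehhadh slope down in liver in both preservations.

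The promoters of this isoform pair are shown because the genes stand in opposite tissues. Each stretch is the 250 bases before the transcript start in RefSeq (GRCm38.p6), and the capitals mark the hexamer AGGTCA on either strand, the building block of the element that PPAR alpha and its partner RXR are known to bind. Cpt1a lies at chr19:3323051-3323300 on the plus strand and Cpt1c at chr7:44974852-44975101 on the minus strand.
Cpt1a: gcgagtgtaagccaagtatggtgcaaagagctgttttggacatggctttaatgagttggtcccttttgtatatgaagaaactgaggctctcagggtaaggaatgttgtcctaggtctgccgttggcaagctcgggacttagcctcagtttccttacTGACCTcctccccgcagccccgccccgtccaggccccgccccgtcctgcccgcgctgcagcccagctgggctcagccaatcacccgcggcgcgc
Cpt1c: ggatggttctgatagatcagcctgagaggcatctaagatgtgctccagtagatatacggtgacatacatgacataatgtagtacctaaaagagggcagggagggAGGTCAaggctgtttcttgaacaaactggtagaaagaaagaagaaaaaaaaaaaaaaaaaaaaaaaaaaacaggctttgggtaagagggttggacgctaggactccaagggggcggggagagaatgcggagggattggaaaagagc
Both hold 1 such hexamer, so this motif did not separate them. GC content over the full window of 300 bases, 250 before and 50 after the start, was 62.3% for Cpt1a and 47.3% for Cpt1c, with 22 and 8 CpG dinucleotides.

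All 9 measured genes of the mitochondrial cycle were higher in liver in both preservations, with differences of 1.08 to 4.03 in FF and 1.79 to 5.18 in FFPE. At the upper end stood Acaa2, the thiolase that ends each round, which read 7.34, 7.26 and 7.12 in FF brain and 11.49, 11.29 and 11.04 in FF liver. In FFPE it read 5.86, 5.73 and 6.27 against 11.47, 11.18 and 10.74. The gap between tissues was many times the spread within each, at 4.03 ± 0.14 in FF and 5.18 ± 0.14 in FFPE. Hadhb, the thiolase subunit of the trifunctional protein for long chains, had the smallest FF difference. It read 8.28, 8.51 and 8.47 in FF brain and 9.99, 9.72 and 8.80 in FF liver, a difference of 1.08 ± 0.11 (adjusted p = 1.48e-06). In FFPE the difference was 2.44 ± 0.11 (adjusted p = 3.94e-10). The second, dimmer probe set of Hadhb gave 0.87 in FF and -0.26 in FFPE, and that of Acadl, also dimmer, gave 0.30 and 0.05. Other probe sets of Acaa2, Decr1 and Hadh were higher in liver in both preservations. Among the acyl-CoA dehydrogenases, which start each round, Acadvl (very long chains) was higher by 3.04 and 3.76 in FF and FFPE, Acadl (long chains) by 2.84 and 3.44, and Acadm (medium chains) by 2.46 and 4.33. Acads, for short chains, was higher by 3.57 ± 0.14 in FF and by 1.79 ± 0.14 in FFPE. It was the member of the cycle whose tissue difference was smaller in FFPE.

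The auxiliary enzymes Decr1 and Eci1, which deal with double bonds of unsaturated chains, were higher in liver by 3.11 and 2.55 in FF and by 3.31 and 2.97 in FFPE. Hadh, the dehydrogenase of short and medium hydroxyacyl chains, was higher by 3.10 and 3.90. Electrons from the dehydrogenases pass through Etfa, a subunit of electron transfer flavoprotein, and Etfdh, which feeds the respiratory chain. Etfa was higher in liver by 2.68 ± 0.11 in FF and 3.74 ± 0.11 in FFPE, and Etfdh by 2.59 ± 0.14 and 4.27 ± 0.14.

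The ketone body genes divided between the tissues. Acat1, the mitochondrial acetoacetyl-CoA thiolase used in making and in burning ketone bodies, read 9.34, 9.38 and 9.27 in FF brain and 10.93, 11.01 and 11.24 in FF liver. It was higher in liver by 1.73 ± 0.12 in FF (adjusted p = 1.96e-08) and 2.58 ± 0.12 in FFPE (adjusted p = 3.84e-10). Oxct1 encodes the transferase that lets tissues burn ketone bodies and that hepatocytes are known to lack. It read 9.68, 9.88 and 9.74 in FF brain and 5.37, 5.29 and 5.55 in FF liver, with 8.92, 9.06 and 9.25 against 4.65, 5.37 and 5.47 in FFPE. The tissues were far apart, at -4.36 ± 0.15 in FF (adjusted p = 1.23e-11) and -3.91 ± 0.15 in FFPE (adjusted p = 5.26e-11), and the other 3 Oxct1 probe sets were also lower in liver, by -6.63 to -2.64 in FF.

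The regulators also opposed each other. Ppara, the nuclear receptor that drives many of these genes in liver, read 4.03, 4.21 and 4.02 in FF brain, below the array median, and 9.10, 9.23 and 9.49 in FF liver. Its difference was 5.19 ± 0.12 in FF (adjusted p = 2.31e-13) and 3.73 ± 0.12 in FFPE (adjusted p = 7.09e-12). Pdk4, the kinase that shuts pyruvate dehydrogenase and is usually counted among the targets of Ppara, read 5.96, 5.97 and 5.85 in FF brain and 4.03, 4.06 and 3.98 in FF liver. The liver values lay below the array median in all 6 liver arrays, and Pdk4 was lower in liver by -1.90 ± 0.11 in FF (adjusted p = 2.87e-09) and -0.67 ± 0.11 in FFPE (adjusted p = 0.000138). Of a list of other Ppara targets, 8 of the 9 with a probe set passed the filter on low values, and 8 of these were higher in liver in FF and 7 in FFPE, with medians of 3.03 and 2.91. Over all genes tested, 36.5% were higher in liver in FF and 34.5% in FFPE. A target could pass that filter through the liver arrays alone, so these counts are a description and no test. Among these targets Angptl4, a lipoprotein lipase inhibitor, differed by 4.40 ± 0.12 in FF, and Plin2, a lipid droplet coat protein, by 4.09 ± 0.14. Both are known to be induced in fasting, as is Pdk4.

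Among the peroxisomal genes, Ehhadh encodes the bifunctional enzyme for hydration and dehydrogenation of straight and dicarboxylic chains. It read 3.99, 3.84 and 3.78 in FF brain, below the array median, and 9.47, 9.09 and 8.73 in FF liver, a difference of 5.23 ± 0.14 (adjusted p = 7.3e-13). In FFPE it read 4.65, 4.97 and 4.84 against 8.66, 8.42 and 7.57, a difference of 3.40 ± 0.14 (adjusted p = 7.34e-11). The brain arrays at 0 h, where hepatocyte markers were raised, read highest of their series for Ehhadh in FF and lowest in FFPE. The part of hepatocyte signal in these values was not tested. Acaa1a, the peroxisomal thiolase, was higher in liver by 3.74 ± 0.12 in FF and 4.68 ± 0.12 in FFPE. Its probe set may also read the near-identical Acaa1b, so how much of the signal belongs to each copy is uncertain. Hsd17b4, the second bifunctional enzyme, which handles branched chains, differed by 2.67 and 3.05. Hacl1 and Phyh, which cleave and hydroxylate phytanic acid chains in alpha oxidation, differed by 3.84 and 3.21 in FF and by 3.26 and 4.69 in FFPE. Abcd3, the transporter that imports acyl chains, differed by 2.29 and 3.64, and Pex11a, which promotes peroxisome division, by 2.64 and 3.88. Decr2, Eci2 and Ech1, which handle double bonds, were higher by 2.32 to 3.23 in FF and by 3.25 to 4.38 in FFPE.

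The carnitine acyltransferases of the peroxisome were the exception, with small differences that changed sign with preservation. Crat, which moves acetyl groups, read 6.24, 6.55 and 6.59 in FF brain and 6.07, 6.05 and 5.98 in FF liver. In FFPE it read 5.63, 5.81 and 6.14 against 6.71, 6.48 and 6.31. Neither preservation had overlapping tissues, but the difference was -0.43 ± 0.12 in FF (adjusted p = 0.00533) and 0.64 ± 0.12 in FFPE (adjusted p = 0.00033). A second Crat probe set gave 0.11 in FF and -0.19 in FFPE, and the FF call was lost after quantile normalization (-0.06, adjusted p = 0.648), with all probe sets averaged and without the FF brain array of 3 h. Crot, which moves medium chains out of peroxisomes, read 5.45, 5.31 and 5.52 in FF brain and 5.76, 5.75 and 5.68 in FF liver, a difference of 0.30 ± 0.12 (adjusted p = 0.0373). In FFPE it read 7.18, 7.44 and 7.35 against 6.84, 6.56 and 6.62, a difference of -0.65 ± 0.12 (adjusted p = 0.00037). Its FF call was lost without the FF brain or FF liver array of 3 h or of 18 h, without the FFPE brain array of 18 h, and from the 6 FF arrays alone. For both genes the change of the tissue difference between preservations passed the test (limma), at 1.07 ± 0.17 for Crat (adjusted p = 0.000173) and -0.95 ± 0.17 for Crot (adjusted p = 0.000503). That test covers the size of the change and not whether the signs are opposite.

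Other genes of these pathways, from lists that held no member, were compared in the same way. Over all genes tested, 36.5% were higher and 37.5% lower in liver in FF. Of 28 other peroxisomal genes, 23 were higher and 3 lower in liver in FF, with a median of 1.53. Among them were Acaa1b, the second thiolase copy, at 7.65 ± 0.15, the very long chain synthetase Slc27a2 at 6.45 ± 0.13 and Baat, which conjugates bile acids, at 6.31 ± 0.12. Of 16 other mitochondrial genes, 12 were higher and 3 lower, with a median of 1.50. Nudt7, a peroxisomal coenzyme A hydrolase that this list held, was higher by 6.03 ± 0.13, and Acot9, a mitochondrial thioesterase, lower by -2.80 ± 0.11. Uptake and activation was an even mixture, with 7 of 14 higher and 6 lower and a median of 0.08. The bile acid and long-chain synthetase Slc27a5 (6.72 ± 0.13) and the binding protein Fabp1 (7.68 ± 0.27) were higher in liver, and Fabp3 (-4.88 ± 0.11) and the glial synthetase Acsbg1 (-3.20 ± 0.11) were lower.

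FFPE and FF arrays of the same tissue and time were compared next, to see how far the profile of the pathway depended on preservation and kit. In brain, 27 of the 33 genes read lower in FFPE, 5 read higher and Hsd17b4 did not pass (0.02 ± 0.11, adjusted p = 0.872). Over all genes tested, 53.4% read lower and 28.4% higher. The median of the 33 was -0.98, against -0.42 over all genes, and 26 of the 33 lay below that all-gene median. Mitochondrial genes split 16 lower and 1 higher, with a median of -1.23, and peroxisomal genes 8 lower and 3 higher, with a median of -0.76. In liver, 14 read lower and 8 higher, against 43.5% and 27.8% of all genes, and the median was -0.22 against -0.17. There 18 of the 33 lay below the all-gene median and 15 above. Mitochondrial genes in liver split 7 lower and 3 higher (median -0.24), and peroxisomal genes 5 and 5 (median -0.01). Quantile normalization moved the all-gene median to -0.113 in brain and -0.092 in liver. The split of the 33 was then 18 lower and 8 higher in brain and 10 and 10 in liver.

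**Figure D3:**
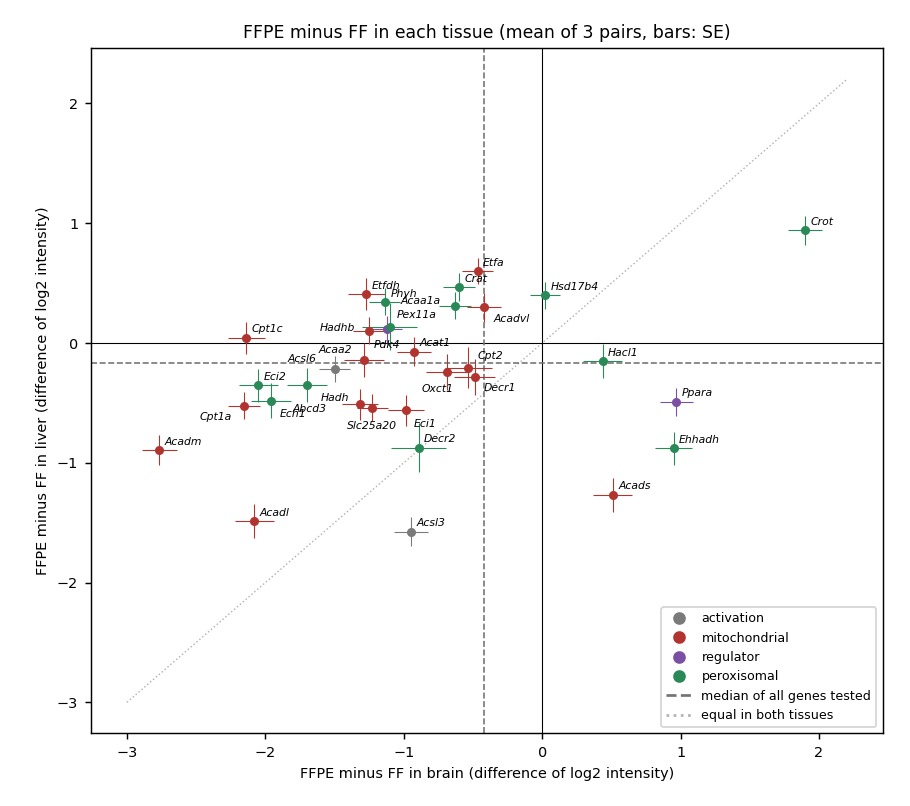
FFPE minus FF difference of log2 intensity in brain (x axis) and liver (y axis) for the 33 measured genes, as means of 3 pairs with SE, coloured by compartment. Most points lie left of the all-gene median in brain (-0.42) and around it in liver (-0.17). Crot is at the upper right, and Ppara, Ehhadh and Acads at the lower right.

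Acadm had the largest FFPE minus FF difference in brain. It read 8.06, 8.02 and 8.14 in FF and 5.29, 5.18 and 5.45 in FFPE, a difference of -2.77 ± 0.12 (adjusted p = 7.95e-10). In liver it read 10.67, 10.59 and 10.33 against 9.94, 9.85 and 9.12, a difference of -0.89 ± 0.12 (adjusted p = 3.39e-05). The preservations did not overlap in either tissue. Cpt1a (-2.15 ± 0.11), Cpt1c (-2.14 ± 0.14), Acadl (-2.08 ± 0.14), Eci2 (-2.05 ± 0.14) and Ech1 (-1.96 ± 0.15) were also far lower in FFPE brain. In FFPE brain, Cpt1a, Cpt2 and Pex11a lay below the array median at every time, and in FF brain Ppara and Ehhadh did. The smaller negative differences in brain of Acadvl (-0.42), Etfa (-0.47) and Acaa1a (-0.63) turned positive after quantile normalization. For Hadhb (-1.25) and Crat (-0.60) the sign turned when all probe sets of the gene were averaged.

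Crot stood on the opposite side, and was higher in FFPE by 1.90 ± 0.12 in brain (adjusted p = 1.21e-08) and by 0.94 ± 0.12 in liver (adjusted p = 1.58e-05). Ppara, Ehhadh, Acads and Hacl1 were higher in FFPE in brain, by 0.97, 0.95, 0.51 and 0.44. In liver the same 4 genes gave -0.49 ± 0.12 (adjusted p = 0.00226), -0.88 ± 0.14 (adjusted p = 7.28e-05), -1.27 ± 0.14 (adjusted p = 4.49e-06) and -0.15 ± 0.14 (adjusted p = 0.361). A dimmer Ppara probe set was lower in FFPE brain, at 3.91, 3.98 and 4.04 against 4.19, 4.23 and 4.43 in FF. Another read 5.22, 5.28 and 5.34 against 5.40, 4.89 and 5.20. The brain call of Ppara was lost with all its probe sets averaged. Ehhadh lay below the array median in 3 FF and 2 FFPE brain arrays. Hacl1's brain pairs were 0.79, 0.51 and 0.01 at 0, 3 and 18 h. Its call was lost without the FF or FFPE brain array of 0 h or 3 h. The Acads call was lost without either of 0 h. Higher in FFPE liver were Etfa (0.60 ± 0.11), Crat (0.47 ± 0.12), Etfdh (0.41 ± 0.14), Hsd17b4 (0.40 ± 0.11), Phyh (0.34 ± 0.11), Acaa1a (0.31 ± 0.12) and Acadvl (0.30 ± 0.12), besides Crot.

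The effect of preservation differed between the tissues for 27 of the 33 genes, with 21 higher and 6 lower in liver than in brain. Over all genes tested, 36.4% and 18.5% did so, or 4760 and 2412 genes, and quantile normalization made that split 3141 and 2867. The median difference was 0.85, against 0.18 over all genes, and the same normalization moved the latter to -0.005 and the split of the 33 to 15 and 6. Cpt1c had the largest positive value, 2.18 ± 0.19 (adjusted p = 1.66e-06). Its FFPE minus FF difference was -2.14 in brain and 0.04 in liver, where it read near the array median in both preservations. Acadm followed at 1.87 ± 0.18 (adjusted p = 2.77e-06). Ehhadh (-1.83 ± 0.19, adjusted p = 6.49e-06), Acads (-1.78 ± 0.20, adjusted p = 1.17e-05) and Ppara (-1.46 ± 0.17, adjusted p = 1.34e-05) had the largest negative values. The sign for Ppara depended on the probe set. Its liver minus brain difference went from 3.54 in FF to 2.70 in FFPE in another probe set. In a dimmer one it went the other way, from 4.20 to 4.67. The Ppara call was kept with all its probe sets averaged. Ehhadh and Ppara lay below the array median in FF brain at all 3 times, so the size of their FF contrast is limited by dim probe sets.

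Time after death was examined within each tissue as the change that FF and FFPE arrays shared, from 2 arrays at each time. In brain 0 of the 33 genes passed at 3 h and 0 at 18 h (limma), where 0.0765% and 0.0306% of all genes did. At an unadjusted p under 0.05 there were 2 at 3 h, Cpt1a and Eci2, and 1 at 18 h, Crat. Brain changes of the 33 ran from -0.38 to 0.32 at 3 h and from -0.50 to 0.43 at 18 h, with medians of 0.03 and 0.06. Over the same interval 1 of 10 hepatocyte markers fell in brain at each time, with medians over the 10 of -1.24 at 3 h and -1.30 at 18 h. Of 5 choroid plexus markers 1 rose at each time, with medians of 1.27 and 0.68. Oligodendrocyte markers gave 0 calls of 6 (limma), but all 6 were above 0 at each time, with medians of 0.69 and 0.36. The part of these markers in the values of the 33 was not tested.

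In liver at 3 h, 0 of the 33 passed (limma), where 0.245% of all genes did, and 1, Hacl1, had an unadjusted p under 0.05. Hacl1 read lower by -0.66 in FF and -0.57 in FFPE, with a fitted change of -0.62 ± 0.17 (adjusted p = 0.234). The 33 genes had a median of -0.08. At that time 4 of 5 Kupffer cell markers fell, with a median of -1.20, and their part in the values of the 33 was not tested. The tissue difference in the 3 h change passed for 0 of the 33 (limma), against 0.0153% of all genes, and 2 genes, Hacl1 and Acaa1a, had an unadjusted p under 0.05.

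At 18 h in liver, 10 of the 33 genes fell and 0 rose (limma), where 10.9% of all genes fell and 3.61% rose. At an unadjusted p under 0.05 there were 13 lower and 1 higher. The median change of the 33 was -0.34, against -0.02 over all genes, and 27 of the 33 lay below that all-gene median. Mitochondrial genes gave 6 decreases of 17, with a median of -0.39, and peroxisomal genes 4 of 12, with a median of -0.38. Without Eci2, Ech1 and Crat, whose proteins have more than 1 known location, 3 of 9 peroxisomal genes fell. Both preservations were below 0 for 20 of the 33 genes and above 0 for 5, against 33.2% and 26.4% of all genes. The count depended on single arrays, at 6 without the FF liver array of 0 h and 4 without the FFPE liver array of 0 h. It was also 4 after quantile normalization, and 6 from the 6 liver arrays alone.

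**Figure D4:**
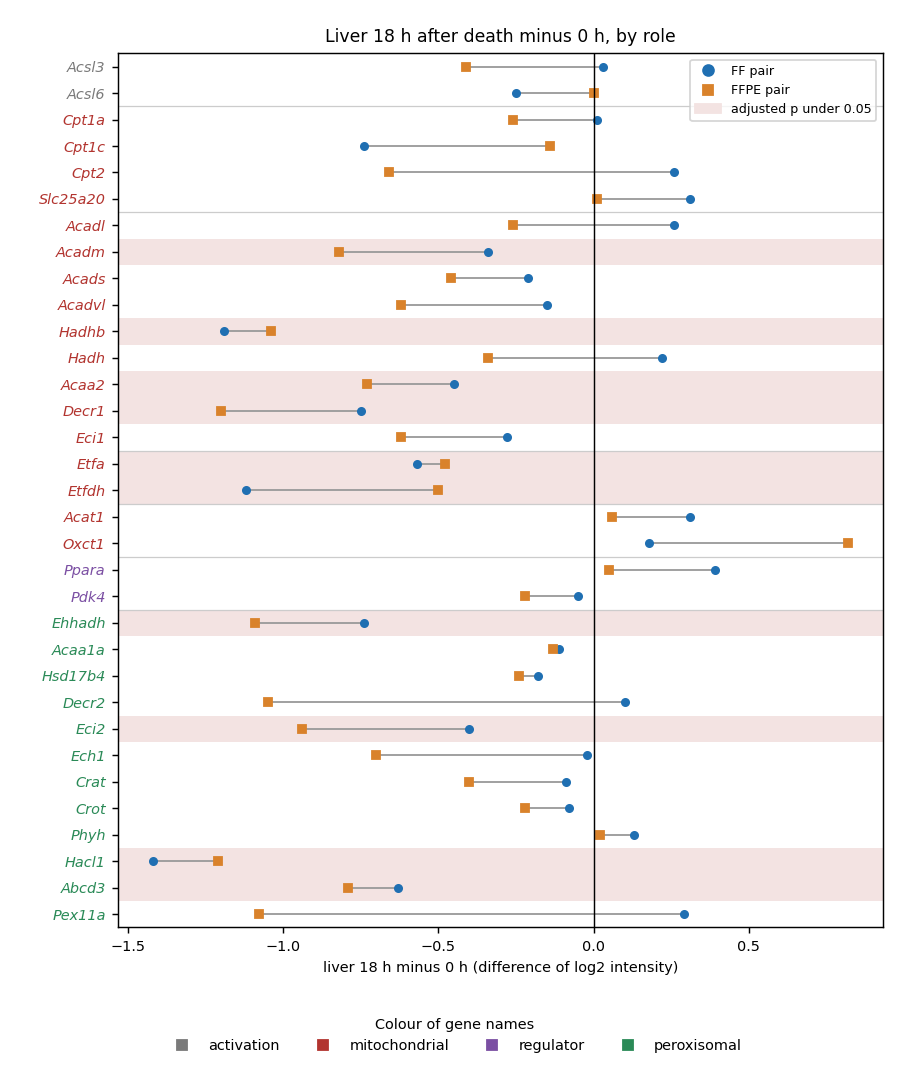
Liver 18 h minus 0 h difference of log2 intensity (x axis) for the 33 measured genes (y axis, by role), with the FF pair and the FFPE pair of single arrays as points joined by a line. Shaded genes passed an adjusted p of 0.05, and all 10 of them lie below 0 in both pairs.

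Hacl1, the lyase of alpha oxidation, fell furthest. It read 9.85, 9.19 and 8.43 in FF liver at 0, 3 and 18 h, and 9.60, 9.03 and 8.39 in FFPE liver. Each series went down at each step, and the change at 18 h was -1.32 ± 0.17 (adjusted p = 0.000526). The FF brain values of Hacl1 were 5.17, 5.41 and 5.36, and its FFPE brain values 5.96, 5.92 and 5.37. The difference between the tissues in the change was -1.12 ± 0.25 (adjusted p = 0.0251). Hadhb read 9.99, 9.72 and 8.80 in FF liver and 9.98, 9.90 and 8.94 in FFPE liver, so that most of its decrease lay after 3 h. Its change was -1.12 ± 0.14 (adjusted p = 0.000365), and the tissue difference was -1.17 ± 0.20 (adjusted p = 0.00842). By 18 h the FF liver value, 8.80, was 0.33 above the FF brain value, where the gap had been 1.71 at 0 h. A second, dimmer Hadhb probe set moved the other way, by 0.79 in FF and 1.01 in FFPE, and with both probe sets averaged the call was lost (-0.11, adjusted p = 0.643).

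The promoter of Hadhb is shown because the gene starts back to back with Hadha, its partner subunit, which is not analysed here. The stretch is the 250 bases before the Hadhb start (RefSeq, GRCm38.p6, chr5:30155003-30155252, plus strand), and the capitals mark the 228 bases that also fall within the 250 bases before the Hadha start on the other strand.
Hadhb: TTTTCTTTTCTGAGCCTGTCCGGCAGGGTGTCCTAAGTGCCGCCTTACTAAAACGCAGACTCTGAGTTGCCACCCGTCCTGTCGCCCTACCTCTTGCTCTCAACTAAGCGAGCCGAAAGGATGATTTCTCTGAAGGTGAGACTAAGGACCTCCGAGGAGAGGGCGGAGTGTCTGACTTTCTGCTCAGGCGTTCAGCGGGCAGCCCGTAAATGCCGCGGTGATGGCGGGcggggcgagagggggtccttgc
Between the starts of the pair lie 272 bases, so that the whole stretch lies upstream of both genes.

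Ehhadh read 9.47, 9.09 and 8.73 in FF liver and 8.66, 8.42 and 7.57 in FFPE liver, and was lower at each step in both. The change at 18 h was -0.92 ± 0.17 (adjusted p = 0.00318), and the tissue difference was -0.91 ± 0.23 (adjusted p = 0.0478). Decr1 read 9.37, 9.24 and 8.62 in FF and 9.33, 8.92 and 8.13 in FFPE, a change of -0.98 ± 0.18 (adjusted p = 0.00386), and its second probe set gave 0.01 in FF and -0.41 in FFPE. Electron transfer was represented by both measured genes. Etfdh read 10.04, 9.60 and 8.92 in FF and 10.15, 9.98 and 9.65 in FFPE, a change of -0.81 ± 0.17 (adjusted p = 0.00644). Etfa read 10.38, 10.16 and 9.81 in FF and 10.94, 10.75 and 10.46 in FFPE, a change of -0.53 ± 0.13 (adjusted p = 0.0204). In each of these genes the 18 h array was the lowest of its series.

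Abcd3 (-0.71 ± 0.17, adjusted p = 0.0172), Eci2 (-0.67 ± 0.17, adjusted p = 0.0199), Acaa2 (-0.59 ± 0.17, adjusted p = 0.0397) and Acadm (-0.58 ± 0.15, adjusted p = 0.0242) made up the 10. The other 2 Acaa2 probe sets gave -1.15 and -1.27 as means of both preservations. The remaining 23 genes did not pass, with changes from -0.47 for Decr2 to 0.50 for Oxct1. The carnitine shuttle and the ketone body genes had no member past the threshold. Cpt1a, for example, gave -0.12 ± 0.14 and Acat1 0.18 ± 0.15. Acat1's other probe sets gave -0.28 and -0.79, and a second Slc25a20 probe set gave -0.62 where the one used gave 0.16. For some genes that missed the threshold the preservations had opposite signs. Decr2 went from 8.76 to 7.71 in FFPE liver and from 9.10 to 9.20 in FF liver, and Pex11a from 8.78 to 7.70 and from 8.07 to 8.36.

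Between 3 h and 18 h in liver, 7 of the 33 fell and 0 rose (limma), where 7.58% of all genes fell and 2.76% rose. These were Hadhb (-0.94 ± 0.14, adjusted p = 0.00209), Hacl1 (-0.70 ± 0.17, adjusted p = 0.0246), Decr1 (-0.70 ± 0.18, adjusted p = 0.0288), Abcd3, Eci2, Ehhadh and Acads. Acads is the one gene here that was not called at 18 h against 0 h: it read 8.71, 9.05 and 8.50 in FF and 7.58, 7.76 and 7.12 in FFPE, so its 3 h arrays were the highest of each series. At an unadjusted p under 0.05 there were 12 lower and 0 higher. The count was 1 without either 3 h liver array, 4 without the FFPE liver array of 18 h and with no filter on low values, and 1 after quantile normalization or from the 6 liver arrays alone. The 18 h arrays enter both comparisons of that time, and the 0 h arrays enter both comparisons with death, so these results are not independent.

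The tissue difference in the 18 h change passed for 3 of the 33, all more negative in liver, where 3.96% of all genes were more negative and 0.52% more positive. They were Hadhb, Hacl1 and Ehhadh. The count ran from 0 without the FF brain array of 0 h or of 18 h, through 1 without the FF or FFPE liver array of 0 h or the FFPE brain array of 18 h, to 9 without the FF liver array of 18 h. It was 0 after quantile normalization, with adjusted p of 0.0564 for Hadhb.

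In the 4 lists of other pathway genes, the calls at 18 h in liver were all decreases. Over all genes tested, 10.9% fell and 3.61% rose, so decreases were the more common call there too. Among other peroxisomal genes 10 of 28 fell, with a median of -0.41, including the import receptor Pex7 (-1.30 ± 0.14, adjusted p = 0.00018) and the membrane channel Pxmp2 (-1.39 ± 0.19, adjusted p = 0.000665). Among other mitochondrial genes 5 of 16 fell, with a median of -0.42, including Echs1, the hydratase of the mitochondrial cycle, which read 10.09, 9.75 and 8.94 in FF and 9.38, 9.17 and 8.23 in FFPE (-1.15 ± 0.15, adjusted p = 0.000398). Of 8 other Ppara targets 3 fell, led by the cytosolic thioesterase Acot1 (-1.62 ± 0.21, adjusted p = 0.00041), and of 14 uptake and activation genes 3 fell. Hepatocyte markers gave 0 calls of 10 (limma), with a median of -0.05 and a range of -0.31 to 0.10, and their summed signal went from 15.77 to 15.75 in FF liver and from 15.62 to 15.53 in FFPE liver. In the same comparison 2 of 5 Kupffer cell markers fell (median -0.40), 2 of 4 sinusoidal endothelial markers rose (median 0.44) and 2 of 3 erythroid markers rose (median 1.09). From 0 h to 18 h the 3′ minus 5′ gap in liver was larger for Gapdh in both preservations, larger for Actb and Pcx in FF and smaller for both in FFPE. The part of these markers and gaps in the decreases was not tested.

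Promoters were searched for the direct repeat AGGTCANAGGTCA, the known element of PPAR alpha with RXR, on both strands and with up to 2 mismatches. The table of RefSeq promoters used here held 32 of the 37 genes, with 37 windows in all, of 250 bases before to 50 after the start. A match was present in 2 of the 37 (5.41%), against 3.86% of all 32851 windows. An exact match was present in 0 of the 37 and in 0.0396% of all. The hexamer AGGTCA, which every exact match of the repeat also contains, was present in 16.2% of the windows and in 16.3% of all. The 2 matches are shown, in capitals, because they are the only ones among the 37 windows at this number of mismatches. For Etfa the stretch is the 250 bases before the start, at chr9:55512244-55512493 on the minus strand. For Slc25a20 it is 30 bases around the start, at chr9:108662133-108662162 on the plus strand.
Etfa: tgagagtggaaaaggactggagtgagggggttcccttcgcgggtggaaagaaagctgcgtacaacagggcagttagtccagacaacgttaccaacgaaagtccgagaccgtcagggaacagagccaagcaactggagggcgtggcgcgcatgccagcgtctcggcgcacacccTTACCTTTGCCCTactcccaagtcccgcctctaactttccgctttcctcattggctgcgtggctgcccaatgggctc
Slc25a20: cctgaatgtAGGTGAAAGGTCGgcggagcc
The Etfa match begins at base -77, and the Slc25a20 match at base 7 of the transcript. The windows of the 37 were richer in G and C than others, with a median of 60.7% against 52.7%, and held a median of 16 CpG dinucleotides against 7. A match is a description of letters only, and no occupancy was measured here.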

How the data were processed

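Brain and liver RNA from 12 conditions was hybridised to 1 Affymetrix array each. The authors deposited log2 values. Per the submitters' processing notes, these were summarised per probe set with RMA, and the program was Affymetrix Expression Console. Whether all arrays were summarised in a single run is not given in the sources used here. RMA evens out intensity distributions between the arrays it is run on, which can shrink or shift differences between preservations.

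Of 45141 probe sets, 104 were controls, 28898 were listed with 1 gene in GEO's platform annotation, 551 with several and 15588 with none. The probe set with the highest mean stood for each gene. A gene was tested if it reached the array median in at least 3 arrays. limma 3.58.1 in R 4.3.3 fitted 8 coefficients: a mean for each tissue and preservation, and a change at 3 h and at 18 h in each tissue. This left 4 residual degrees of freedom, and the spread was shared across genes. P-values were Benjamini-Hochberg adjusted over 13073 genes with a threshold of 0.05, and the fit was tested on simulated data. For liver at 18 h against 0 h it recovered 33% of simulated 1.5-fold changes and 98.5% of 2-fold changes, so small changes would mostly be missed. Errors are standard errors of the fit. Every measured gene of the set was described, and other pathway genes and markers were named from the 4 smallest p-values of a list in a comparison. The members and lists were chosen with earlier results of these data known.

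Alternatives were quantile normalization, the mean of all probe sets of a gene, no filter, a robust spread, no time coefficients, only the 6 arrays of a tissue or preservation, and leaving out each array. Promoters came from RefSeq (GRCm38.p6).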

Additional observations from a re-analysis of the deposited data

Results flagged for a closer look

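For 27 genes the FFPE minus FF difference in liver minus that in brain passed the test of the difference itself (limma, adjusted p under 0.05). Among activation and shuttle genes it was -0.63 for Acsl3, 1.28 for Acsl6, 1.63 for Cpt1a, 2.18 for Cpt1c and 0.69 for Slc25a20. In the mitochondrial cycle it was 0.59 for Acadl, 1.87 for Acadm, -1.78 for Acads, 0.72 for Acadvl, 1.36 for Hadhb, 0.80 for Hadh and 1.14 for Acaa2. For electron transfer and ketone body genes it was 1.07 for Etfa, 1.68 for Etfdh and 0.85 for Acat1, and for the regulators -1.46 for Ppara and 1.24 for Pdk4. Of peroxisomal genes it was -1.83 for Ehhadh, 0.94 for Acaa1a, 1.70 for Eci2, 1.48 for Ech1, 1.07 for Crat, -0.95 for Crot, 1.48 for Phyh, -0.59 for Hacl1, 1.35 for Abcd3 and 1.24 for Pex11a. Such calls were common: by the same test 36.4% of all genes tested were higher in liver than in brain and 18.5% lower. After quantile normalization 19 of the 27 calls were kept, 8 were lost and 2 were gained. With all probe sets averaged 23 were kept, 2 were gained, and those of Acsl3, Slc25a20, Acadl and Hadhb were lost. Another probe set of each of these 4 genes, and of Acat1, Ppara and Crat, changed the other way between preservations. The second Hadhb probe set, for example, gave a liver minus brain difference of 0.87 in FF and -0.26 in FFPE. Other probe sets of Acsl6, Hadh, Acaa2 and Acaa1a changed the same way.

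The change from 0 h to 18 h also differed between the tissues by the same kind of test for 3 genes. The liver change minus the brain change was -1.17 for Hadhb, -0.91 for Ehhadh and -1.11 for Hacl1. By this test 3.96% of all genes tested were more negative in liver and 0.52% more positive. After quantile normalization 0 of the 3 calls were kept.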

How the results depend on the processing

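In FFPE all 33 liver minus brain calls kept their direction and side of the threshold under every alternative run, and in FF all but those of Crat and Crot did. Quantile normalization gave 8 genes higher in FFPE brain, 4 lower in liver at 18 h (2 mitochondrial and 2 peroxisomal), 1 lower between 3 h and 18 h, and 0 with a tissue difference at 18 h. The 6 liver arrays alone gave 6 lower at 18 h (3 mitochondrial) and 1 between 3 h and 18 h. Without time coefficients 5 were higher in FFPE liver, and without a filter 4 were lower between 3 h and 18 h. Leaving out single arrays gave 3 to 5 genes higher in FFPE brain and 4 to 8 in FFPE liver. For liver at 18 h it gave 0 to 1 higher and 4 to 12 lower, with 2 to 6 mitochondrial and 2 to 7 peroxisomal. Between 3 h and 18 h it gave 1 to 10 lower, and for the tissue difference at 18 h 0 to 9.

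Signs turned for few genes. After quantile normalization, the FFPE minus FF difference in brain was 0.403 for Acadvl, 0.43 for Etfa and 0.218 for Acaa1a, and its difference between tissues was -0.085 for Hadh and -0.41 for Hsd17b4. With all probe sets averaged, it was 0.452 for Hadhb and 0.345 for Crat in brain, 0.237 for Acaa2 and -0.502 for Pex11a in liver, and 0.271 for Acsl3 between tissues. The cause was not tested. The fit already matched FF and FFPE arrays by tissue and time, and the replicate numbers, the same on every array, gave no further pairing. With 1 array per condition, depth of sampling rests on the spread left over by the fit.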
